A study of Mus musculus with 17 samples.

Results

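The 37 genes described here encode the machinery that copies DNA in S phase. They were taken by gene name from a table of 34140 mouse genes: 10 genes of origin licensing, 6 of helicase activation, 6 of the polymerases and primase, 6 of the sliding clamp, its loader and the flap nuclease, 5 of nucleotide supply, and 4 of S-phase entry and chromatin. The table holds FPKM (fragments scaled to exon length and to library size) for 17 RNA-seq libraries of skin from C57/BL6j mice. Unirradiated control skin was labelled 0, 3, 6 and 9 days after injury, with 2, 2, 2 and 3 libraries, and irradiated skin was labelled 3, 6 and 9 days, with 3, 2 and 3 libraries. The labels give no radiation dose, age or sex, name no irradiated group at day 0, and do not say that the libraries of a group came from separate animals, so p-values measure the spread between these samples, which may be technical. The study's title concerns TGF-β1 in wound healing after ionizing radiation, and the comparisons here ask how the replication genes moved after injury with and without radiation.

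DNA replication starts at origins, where the origin recognition complex, Cdc6 and Cdt1 load the Mcm2 to Mcm7 ring before S phase. Cdc45 and the GINS complex then join the ring to form the active helicase, polymerase alpha with primase starts each strand, and polymerases epsilon and delta extend them on the clamp Pcna. Most of these genes are known targets of E2F transcription factors and are transcribed as cells pass from G1 into S phase. In skin, dividing cells are found mainly in the basal epidermis and the hair follicle matrix, and in a healing wound also among fibroblasts, endothelial and immune cells.

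E2F factors bind a short sequence in the promoters of many replication genes, so RefSeq promoters (GRCm38.p6, the mm10 build, 250 bases before to 50 after the start) were searched for E2F-type words. A promoter was found for 29 of the 37 genes, and where a gene had several promoters a match in any of them counted. The words were TTTCCCGC, TTTGGCGC, TTTCGCGC and TTTGCCGC on both strands, and they can overlap each other on opposite strands. A match was found in 12 of the 29 (41.4%), in 2.61% of 27025 genes, in 29.4% of 68 other pathway genes and in 1 of 26 mitosis genes. Among the 8899 genes with a promoter GC content of 53.75% to 65.92% the share was 3.83%. That range is the interquartile range of the members' promoters, which ran from 38.67% (Cdc45) to 77.33% (E2f1). The 12 of 29 were not limited to it. The CHR word TTTGAA, known from genes of G2 and mitosis, was in 19 of the 26 mitosis genes (73.1%) against 4 of 29 members (13.8%) and 20.2% of all genes, and CCAAT was in 58.6% of members and 41.1% of all genes. The 12 members are Orc1, Cdc6, Cdt1, Mcm3, Mcm5, Mcm6, Mcm7, Gins3, Pola1, Pold1, Rfc3 and Uhrf1. A match is a description of letters and not a site. Tyms was among those with no match in this window. Windows around the match are printed for 6 of the 12, chosen to span licensing, polymerase and S-phase entry genes, with the matched letters in capitals:
Mcm5: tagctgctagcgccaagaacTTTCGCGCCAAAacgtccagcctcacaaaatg
Mcm6: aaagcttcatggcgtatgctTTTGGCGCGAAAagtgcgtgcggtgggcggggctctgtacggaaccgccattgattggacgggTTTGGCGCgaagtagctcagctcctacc
Orc1: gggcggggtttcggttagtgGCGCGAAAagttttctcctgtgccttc
Cdc6: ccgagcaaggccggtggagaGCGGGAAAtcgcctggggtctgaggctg
Pola1: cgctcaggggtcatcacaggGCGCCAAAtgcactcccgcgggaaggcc
Uhrf1: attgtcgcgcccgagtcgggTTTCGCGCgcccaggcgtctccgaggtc
All are read 5′ to 3′ on the strand of the gene. The windows lie at chr8:75109336-75109387 (Mcm5, plus strand), chr1:128359725-128359835 (Mcm6, minus), chr4:108579407-108579453 (Orc1, plus), chr11:98907993-98908040 (Cdc6, plus), chrX:93632266-93632313 (Pola1, minus) and chr17:56304108-56304155 (Uhrf1, plus). In Mcm5 and Mcm6 a pair of words overlaps on opposite strands, and Mcm6 carries another match closer to its start. The Uhrf1 window comes from a promoter at chr17:56304063-56304362, which lies inside the gene. Its promoter at chr17:56303087-56303386, which spans the start of the gene, had no match. Mcm7 also had a promoter with a match and another without, both inside the gene. The Cdc6 window comes from a promoter at chr11:98907901-98908200, which lies inside its gene, whose span starts at 98907801.

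**Figure D1:**
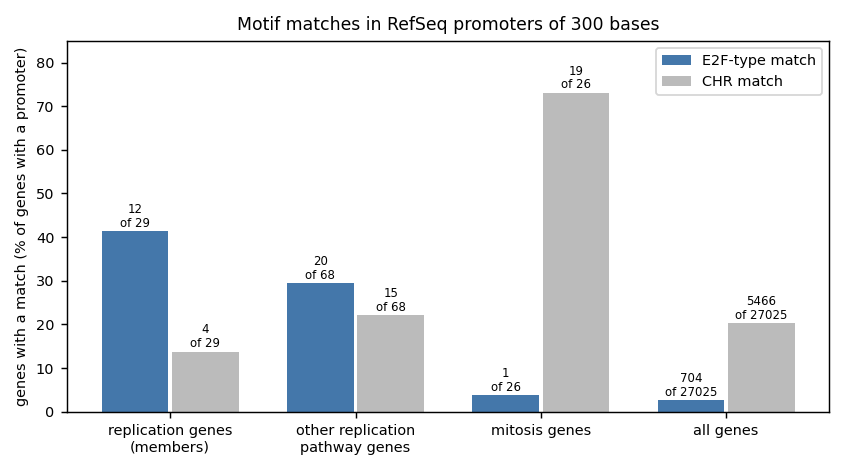
Share of genes whose RefSeq promoter of 300 bases holds an E2F-type word or the CHR word, for the replication genes, other pathway genes, mitosis genes and all genes; labels give matches of genes with a promoter. E2F-type words are in 12 of 29 replication genes and 1 of 26 mitosis genes, and the CHR word in 4 of 29 and 19 of 26.

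The fragment total by which FPKM was scaled, recovered from the values, was 25440773 to 30797409 per library. Recovered fragments summed over genes were higher in each library, at 26659300 to 32518411, and the reason was not tested. The number behind a gene ranged from 2 to 32 per library for Fen1 to 1662 to 4685 for Pcna. The skin label held: the keratins Krt5, Krt14 and Krt10 and the collagen Col1a1 were present in every library. The control day 0 libraries stood apart. Mitochondrially encoded genes took 31.8% and 21.7% of their summed FPKM against 8.33% to 12.6% in the other 15, and 8 skeletal muscle markers summed to 16553 to 19205 FPKM against at most 4151 elsewhere. In bulk tissue, fewer cells of a type and less RNA per cell cannot be told apart.

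In unirradiated skin the replication genes were lowest at day 0 and highest at day 3. The summed FPKM of the 37 genes was 128 and 163 in the day 0 libraries, 373 and 384 at day 3, 274 and 253 at day 6, and 303, 275 and 257 at day 9. In irradiated skin the sum was 325, 281 and 307 at day 3, 247 and 290.0 at day 6, and 309, 316 and 329 at day 9. Both day 3 control libraries were above every other library, and both day 0 libraries were below every other library. By group mean all 37 genes were lowest in control day 0, as were 43.7% of all genes tested, and 35 were highest in control day 3, against 17.5% of all genes tested. The exceptions were E2f1, highest in control day 9, and Fen1, highest in irradiated day 9. For 23 of the 37 genes both control day 3 libraries exceeded each of the other 15 (background 3.61%).

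**Figure D2:**
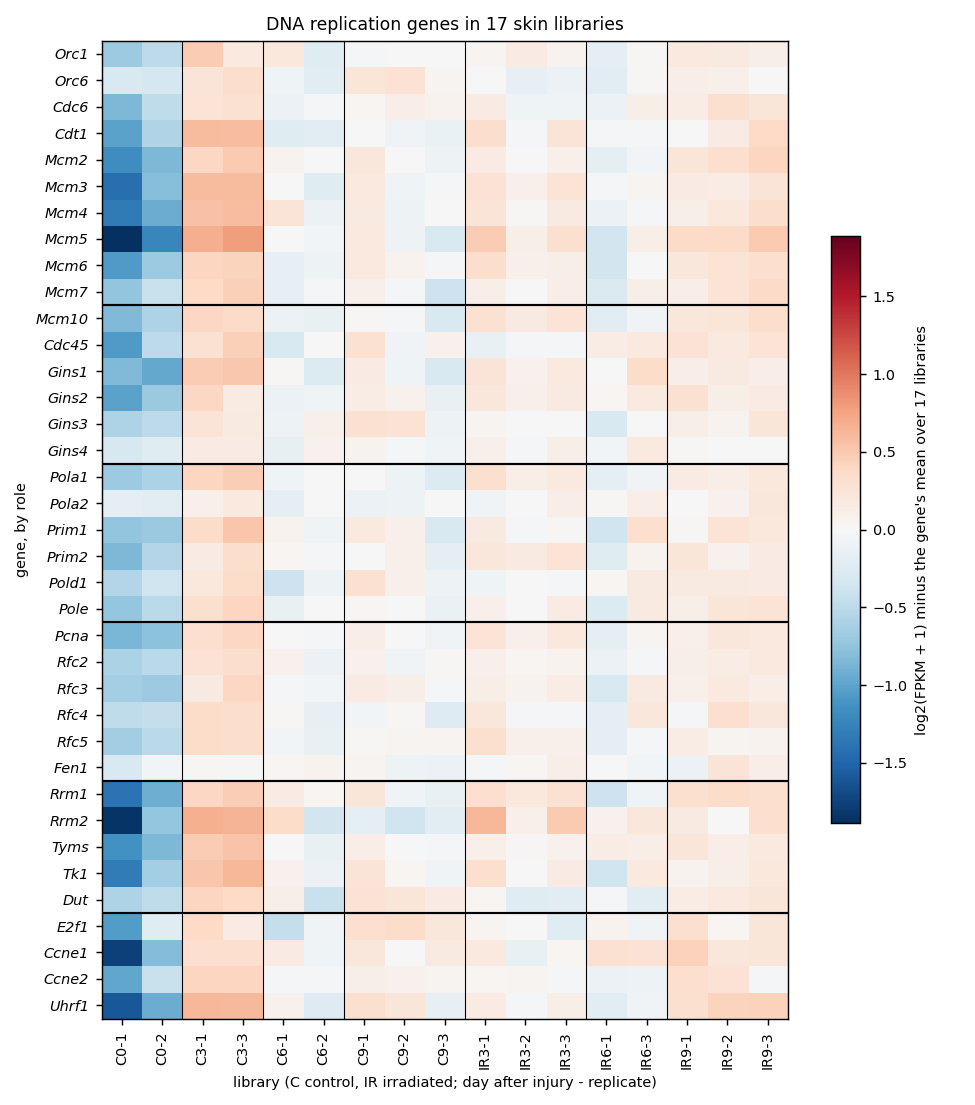
Each row is a replication gene, grouped by role with horizontal lines, and each column a library; colour shows log2(FPKM + 1) minus the gene's mean over the 17 libraries. By group mean all 37 genes are lowest in control day 0 and 35 are highest in control day 3.

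Tests used log2(FPKM + 1) and limma, with p-values adjusted over the 15271 genes that reached 1 FPKM in at least 2 libraries. Of the 37 genes 36 passed this filter. Fen1 did not, at 0.0325 to 0.482 FPKM, and 78.8% of its exon bases also belong to an antisense gene, Gm10143. From control day 0 to control day 3 all 36 rose (limma, adjusted p under 0.05), where 25.8% of all genes tested rose. The median log2 fold change was 1.10 for the 36 and 0.16 for all genes. By control day 6, 29 of the 36 were higher than at day 0 (background 21.1%, median 0.63 against 0.11), and by day 9, 35 of 36 (background 30.4%, median 0.75 against 0.15). The gene that did not pass at day 9 was Pola2. These comparisons share the same 2 day 0 libraries.

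The day 0 comparisons depend on the scaling and on single libraries. When FPKM was rescaled to nuclear genes, the median of all genes at day 3 moved from 0.16 to -0.05, at day 6 from 0.11 to -0.11 and at day 9 from 0.15 to -0.08, and 34, 26 and 31 replication genes still passed, with medians of 0.92, 0.50 and 0.54. The day 6 count was 2 when only the libraries of those groups were fitted, and 21 without control day 0 replicate 1. Between day 0 and day 3 the 8 basal keratinocyte markers went from a sum of 1904 to 3211 FPKM to one of 12825 to 13245, and the 8 muscle markers from 16553 to 19205 FPKM to 2741 to 3846. The basal markers did not all move together: 4 rose (background 25.8%) and 1 fell (1887 of all 15271 genes tested fell). Their log2 fold changes ran from -1.63 to 3.71, and 2 of the 8 were below 0, as were 5607 of all genes tested. Of the 7 muscle markers tested 6 fell. All 8 basal markers were at 1 FPKM or more in every library, and 7 or 8 of the muscle markers were. The part of these cell types in the result was not tested.

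**Figure D3:**
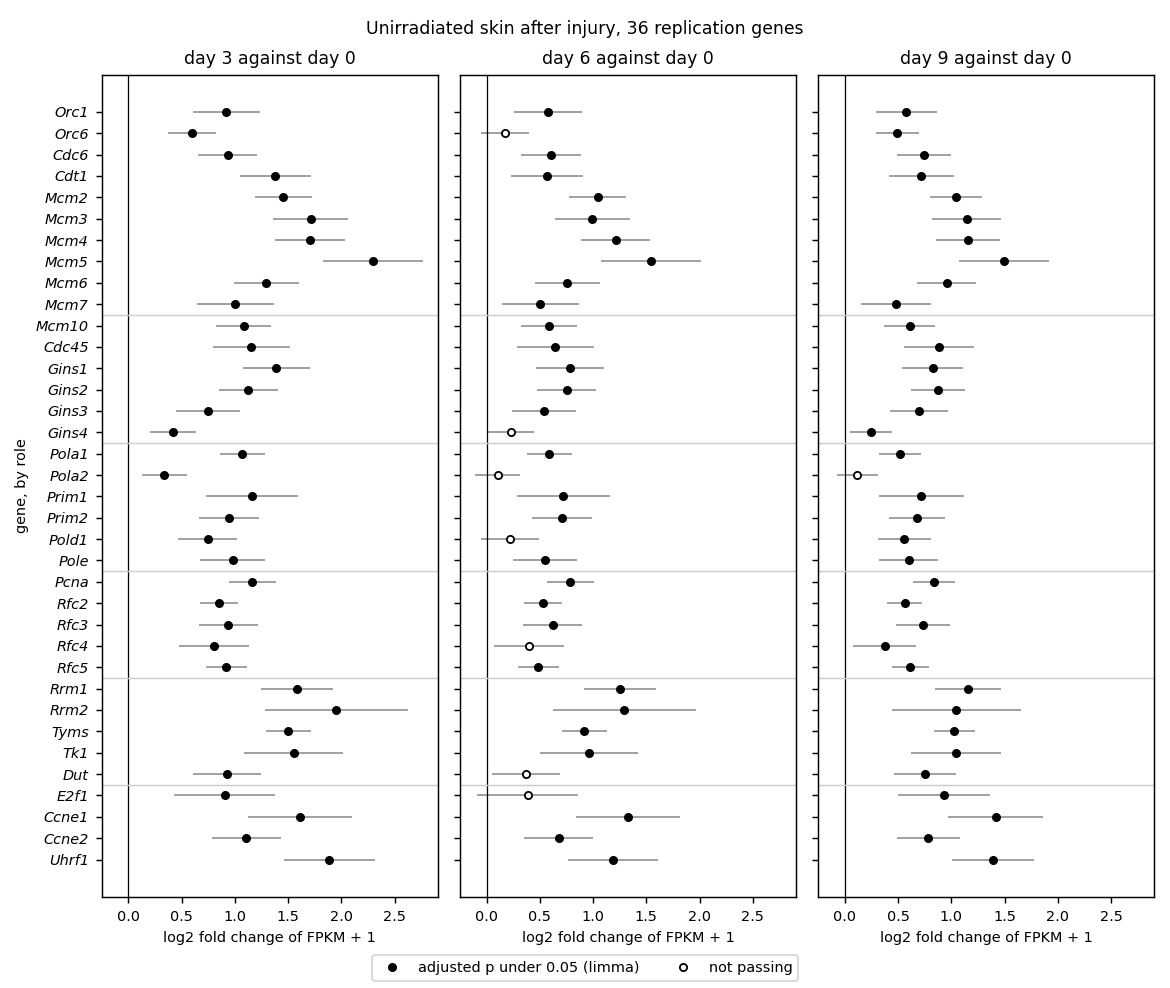
Log2 fold change of FPKM + 1 in control skin at days 3, 6 and 9 against day 0 for the 36 tested genes, with 95% intervals from the limma fit; filled points have adjusted p under 0.05. Values are largest at day 3 (median 1.10), with Mcm5 at 2.30 at the upper end and Pola2 at 0.34 at the lower end.

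Among the licensing genes, Mcm4, a subunit of the helicase ring, had the highest level. Mcm4 lies at chr16:15623897-15637400 on the minus strand of mm10. Its FPKM was 4.86 and 6.70 in control day 0, 20.6 and 21.2 in day 3, 16.6 and 12.7 in day 6, and 15.6, 12.8 and 13.7 in day 9. In irradiated skin Mcm4 was 16.5, 13.9 and 15.6 at day 3, 12.6 and 13.6 at day 6, and 14.9, 15.9 and 17.6 at day 9. The day 3 libraries of the 2 arms did not overlap, and those of days 6 and 9 did. Mcm4 rose by day 3 in control skin (log2 fold change 1.70, SE 0.15), and its irradiation difference at day 3 was -0.42 (SE 0.14, limma adjusted p = 0.19).

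Orc1, the largest subunit of the origin recognition complex, had the lowest level of the licensing genes. Orc1 lies at chr4:108579423-108614833 on the plus strand of mm10. It stood at 0.158 and 0.318 FPKM in control day 0 and at 1.59 and 1.11 in control day 3. The later control values were 1.13 and 0.592 at day 6 and 0.822, 0.856 and 0.851 at day 9. Irradiated Orc1 was 0.924, 1.07 and 0.942 at day 3, 0.649 and 0.881 at day 6, and 1.10, 1.10 and 1.01 at day 9. The rise to control day 3 passed (log2 fold change 0.92, SE 0.15). The irradiated day 3 libraries of Orc1 were all below the controls and the day 9 ones all above them, and neither difference passed. Of its exon bases, 10.8% overlap the antisense gene Gm12743.

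Mcm5, another ring subunit, was chosen here after its values were seen, as the gene with the largest rise after injury. Mcm5 lies at chr8:75109569-75128439 on the plus strand of mm10. Its FPKM was 2.25 and 4.10 in control day 0 and 18.3 and 19.8 in control day 3, a ratio of means of 5.99. It was 11.2 and 10.6 in control day 6 and 12.7, 10.3 and 8.84 in control day 9. In irradiated skin Mcm5 was 15.8, 12.0 and 13.8 at day 3, 8.47 and 12.1 at day 6, and 14.5, 14.5 and 16.0 at day 9. Irradiated libraries were thus all below control at day 3 and all above control at day 9, with log2 differences of -0.44 (SE 0.20) and 0.48 (SE 0.17). Neither passed (limma adjusted p = 0.42 and 0.13). The other 7 licensing genes, Orc6, Cdc6, Cdt1, Mcm2, Mcm3, Mcm6 and Mcm7, rose by 0.60 (Orc6) to 1.71 (Mcm3) to control day 3.

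The helicase activation genes differed widely in level and in how much they moved. Gins4, a GINS subunit, was the highest. Gins4 lies at chr8:23226616-23237659 on the minus strand of mm10. It was at 13.5 and 14.2 FPKM in control day 0, 18.9 and 18.8 in day 3, 15.03 and 17.8 in day 6, and 17.6, 16.3 and 15.9 in day 9. Irradiated Gins4 was 17.9, 16.6 and 18.2 at day 3, 16.3 and 19.2 at day 6, and 17.1, 16.8 and 16.95 at day 9. It rose to control day 3 by 0.42 (SE 0.10) and to control day 9 by 0.25 (SE 0.09, limma adjusted p = 0.040), but the day 9 difference was -0.035 after rescaling to nuclear genes.

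Mcm10, which helps to activate the loaded helicase, was the lowest of this role. Mcm10 lies at chr2:4989714-5012791 on the minus strand of mm10. It was 0.235 and 0.458 FPKM in control day 0, 1.89 and 1.80 in day 3, 1.03 and 0.991 in day 6, and 1.22, 1.14 and 0.803 in day 9. Irradiated libraries held 1.67, 1.45 and 1.62 FPKM of Mcm10 at day 3, 0.899 and 1.10 at day 6, and 1.55, 1.55 and 1.75 at day 9. At day 9 all 3 irradiated libraries exceeded all 3 controls, with a log2 difference of 0.36 (SE 0.10, 95% interval 0.14 to 0.57). This Mcm10 difference had the lowest adjusted p of the 36 at that day and did not pass (limma adjusted p = 0.054). Cdc45 and the GINS subunits Gins1, Gins2 and Gins3 rose by 0.75 (Gins3) to 1.39 (Gins1) to control day 3. Of the Gins2 exon bases, 67.3% overlap Gse1 on the opposite strand, and no source used here states whether counting used strand.

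The polymerase genes included the gene that moved least. Pola2 lies at chr19:5940543-5964206 on the minus strand of mm10. Pola2, the regulatory subunit of polymerase alpha, was 5.32 and 5.25 FPKM in control day 0, 6.70 and 7.20 in day 3, 5.32 and 6.24 in day 6, and 5.64, 5.70 and 6.12 in day 9. In irradiated skin Pola2 was 5.85, 6.16 and 6.84 at day 3, 6.33 and 6.83 at day 6, and 6.21, 6.62 and 7.37 at day 9. Its rise to control day 3 was 0.34 (SE 0.10, limma adjusted p = 0.017) and its day 9 difference from day 0 was 0.12 (95% interval -0.08 to 0.31). At day 9 the irradiated Pola2 libraries were all above the controls by a log2 difference of 0.18 (SE 0.08), which did not pass (limma adjusted p = 0.21).

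Pole, the catalytic subunit of the leading-strand polymerase epsilon, had the lowest level of the polymerases. Pole lies at chr5:110286306-110337474 on the plus strand of mm10. It was 0.296 and 0.508 FPKM in control day 0, 1.66 and 1.85 in day 3, 0.945 and 1.14 in day 6, and 1.21, 1.17 and 0.980 in day 9. Irradiated Pole was 1.31, 1.15 and 1.40 at day 3, 0.793 and 1.41 at day 6, and 1.33, 1.52 and 1.58 at day 9. Its irradiated libraries were below control at day 3, on both sides of it at day 6, and above it at day 9. Pola1, the catalytic subunit of polymerase alpha, the primase subunits Prim1 and Prim2, and Pold1 of polymerase delta rose by 0.74 (Pold1) to 1.16 (Prim1) to control day 3.

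Pcna, the ring-shaped clamp that holds polymerases on DNA, had the highest FPKM of all 37 genes. Pcna lies at chr2:132249162-132253314 on the minus strand of mm10. It was 27.2 and 29.0 in control day 0, 62.5 and 65.8 in day 3, 49.7 and 48.6 in day 6, and 54.8, 50.4 and 48.0 in day 9. Irradiated Pcna was 59.9, 53.6 and 57.7 at day 3, 44.3 and 52.2 at day 6, and 53.7, 58.2 and 57.4 at day 9. The rise of Pcna to control day 3 was 1.16 (SE 0.10), and its irradiation difference at day 3 was -0.17 (95% interval -0.37 to 0.03). The clamp loader genes Rfc2, Rfc3, Rfc4 and Rfc5 rose to control day 3 by 0.80 (Rfc4) to 0.94 (Rfc3). Fen1, the nuclease that trims Okazaki fragment flaps, had 0.0325 and 0.208 FPKM in control day 0, 0.281 and 0.279 in day 3, 0.295 and 0.312 in day 6, and 0.309, 0.182 and 0.164 in day 9. Irradiated Fen1 was 0.228, 0.296 and 0.367 at day 3, 0.262 and 0.208 at day 6, and 0.166, 0.482 and 0.377 at day 9, with the arms overlapping at days 3 and 9 and the irradiated libraries lower at day 6.

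The nucleotide supply genes included the gene with the widest errors and the sole gene called for irradiation. Rrm2, the small subunit of ribonucleotide reductase that limits the supply of deoxynucleotides, was 4.03 and 10.0 FPKM in control day 0 and 28.1 and 27.5 in day 3. It then stood at 22.1 and 13.4 in control day 6 and at 15.3, 13.0 and 14.9 in control day 9. Irradiated Rrm2 was 27.1, 18.4 and 24.8 at day 3, 18.2 and 20.1 at day 6, and 19.5, 17.2 and 21.7 at day 9. Its standard error in the comparisons of 2 groups, 0.25 to 0.31, was the largest of the 36 genes in each. Rrm2 fell from control day 3 to control day 9 by 0.91 on the log2 scale (SE 0.28, limma adjusted p = 0.043). Rrm2 lies at chr12:24708241-24714146 on the plus strand of mm10.

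Tyms, thymidylate synthase, which makes the thymidine nucleotide for DNA, had the lowest level of this role. Tyms lies at chr5:30058202-30073617 on the minus strand of mm10. Its FPKM was 1.17 and 1.65 in control day 0, 5.63 and 5.92 in day 3, 3.75 and 3.31 in day 6, and 4.20, 3.80 and 3.65 in day 9. Irradiated Tyms was 4.12, 3.86 and 4.05 at day 3, 4.25 and 4.19 at day 6, and 4.58, 4.20 and 4.43 at day 9. The irradiated libraries of Tyms thus lay within 3.86 to 4.58 FPKM at all days, with no overlap with control at day 3. Rrm1, the large reductase subunit, Tk1, which salvages thymidine, and Dut, which removes dUTP, rose by 0.92 (Dut) to 1.58 (Rrm1) to control day 3.

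Among the S-phase entry genes, Uhrf1, which reads hemimethylated DNA and brings Dnmt1 to new strands, was the highest. Uhrf1 lies at chr17:56303321-56323486 on the plus strand of mm10. It was 2.197 and 4.08 FPKM in control day 0, 14.0 and 13.8 in day 3, 9.27 and 7.22 in day 6, and 10.9, 10.3 and 7.74 in day 9. Irradiated Uhrf1 was 9.77, 8.53 and 9.45 at day 3, 7.45 and 8.29 at day 6, and 10.9, 12.0 and 12.1 at day 9. The day 3 difference was -0.54 (SE 0.18), the lowest of the 36 genes, and did not pass (limma adjusted p = 0.20).

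Ccne2, cyclin E2, a partner of Cdk2 at S-phase entry, was the lowest of this role. Ccne2 lies at chr4:11191351-11204779 on the plus strand of mm10. It was 1.21 and 2.26 FPKM in control day 0, 4.77 and 4.82 in day 3, 3.29 and 3.30 in day 6, and 3.70, 3.65 and 3.54 in day 9. Irradiated Ccne2 was 3.48, 3.52 and 3.31 at day 3, 3.04 and 3.08 at day 6, and 4.44, 4.30 and 3.29 at day 9. Irradiated libraries were below control at days 3 and 6 and overlapped them at day 9, and 17.4% of the exon bases of Ccne2 overlap Ints8. Cyclin E1 (Ccne1) rose by 1.61 and the transcription factor E2f1 by 0.91 to control day 3. The E2f1 mean in control day 9 was 1.02 times that of day 3, and the other 36 genes had ratios below 1.

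**Figure D4:**
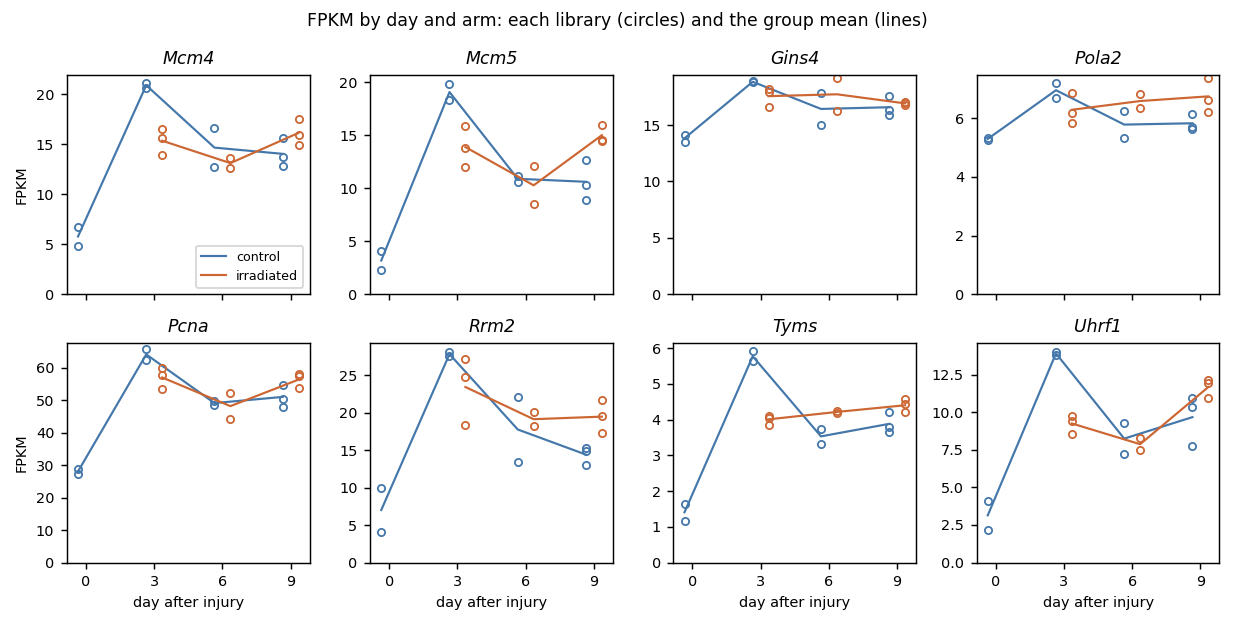
FPKM of 8 replication genes by day after injury: circles are libraries, lines join group means, with control in blue and irradiated in orange. In control skin the means peak at day 3, while the irradiated means of Tyms lie at 4.01 to 4.40 FPKM.

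From control day 3 to control day 9 the replication genes declined in part. Of 36, 15 fell (limma, adjusted p under 0.05; background 10.2%), and 35 had a negative log2 fold change (background 59%), with a median of -0.34 against -0.07 for all genes. They were 6 licensing genes (Cdt1, Mcm2, Mcm3, Mcm4, Mcm5, Mcm7), Mcm10 and Gins1, Pola1, 4 clamp and loader genes (Pcna, Rfc2, Rfc4, Rfc5), and Rrm2 and Tyms. For 32 of the 36 all 3 day 9 libraries were below both day 3 libraries (background 34.9%). The count of 15 that fell rests on single libraries: it was 0 without control day 3 replicate 3, 2 without control day 3 replicate 1 and 5 without control day 9 replicate 2. In irradiated skin none passed between day 3 and day 9 (0 of 36, background 0.963%; 3 at unadjusted p under 0.05, background 16.2%; limma-voom on recovered fragments also 0), and the median was 0.08. Whether the 2 arms differed in this change is the test of the effect at day 9 minus that at day 3, given further on.

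At day 3 the replication genes had lower means in irradiated than in control skin, and a single gene passed the test. Tyms fell, with a log2 fold change of -0.44 (SE 0.09, limma adjusted p = 0.026) and all 3 irradiated libraries below both controls; 0.288% of all genes tested were called lower. All 36 had a negative log2 fold change (background 59.1%), from -0.54 (Uhrf1) to -0.03 (Prim2), with a median of -0.29 against -0.04 for all genes. For 33 of the 36 the irradiated libraries were all below control (background 25.1%), and Gins2, Pola2 and Prim2 overlapped. At unadjusted p under 0.05 there were 18 (background 11.4%). The same 33 genes lay in irradiated day 3 above both day 0 libraries and below both day 3 controls, an order held by 8.74% of all genes tested. The ratio of irradiated to control mean had a median of 0.775 over the 37 genes.

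The lowest adjusted p after Tyms belonged to Orc6 and Dut, and neither passed. Dut was at -0.53 (SE 0.13, limma adjusted p = 0.077) and Orc6, a subunit of the origin recognition complex, at -0.38 (SE 0.09, limma adjusted p = 0.070). By role the median log2 fold change was -0.37 for licensing, -0.16 for helicase activation, -0.25 for polymerases, -0.18 for the clamp and loader, -0.42 for nucleotide supply and -0.35 for S-phase entry. Adding 1 to FPKM shrinks the changes of low genes, so these medians do not rank the roles. The Tyms call was lost with a pseudocount of 0.1 (adjusted p = 0.066), without a filter on low values (0.055), with a replicate block (0.071) and without any of the 5 day 3 libraries (0.068 to 0.32), and array quality weights called 12 genes. This comparison shares its 2 control libraries with control day 9 against control day 3. At day 3 the basal keratinocyte markers summed to 8944 to 12325 FPKM in irradiated and 12825 to 13245 in control skin, and 8 macrophage and monocyte markers, all at 1 FPKM or more in every one of these libraries, to 467 to 600.3 and 291 to 392. None of the basal markers was called, and 7 of 8 were below 0 (background 59.1%). Of the macrophage and monocyte markers 1 rose (background 1.56%). In that list 6 were above 0 and 2 below, from -1.58 to 1.89. The 6 erythroid markers, with at most 1 at 0 in any of these libraries, summed to 2.03 to 8.34 FPKM in irradiated and 155 to 209.7 in control skin, and all 5 that were tested fell (background 0.288%, median -3.59). The part of these cell types in the difference was not tested.

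At day 6 no replication gene passed and the arms were mixed. None of 36 was called (background 0.275%; 1 at unadjusted p under 0.05, Pold1 at 0.35, SE 0.13, background 15.4%; limma-voom 0), with 18 below 0 (background 47.1%) and a median of -0.00. Each arm had 2 libraries at this day. The irradiated libraries of the 37 genes differed between themselves: replicate 1 was below replicate 3 for 31.

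At day 9 most replication genes had higher means in irradiated than in control skin, and no gene passed. None of 36 was called (background 5.38%; limma-voom 0), 7 reached unadjusted p under 0.05 (background 22.7%), and the median log2 fold change was 0.16 against 0.02 for all genes. Those 7 were Mcm2, Mcm5, Mcm7, Mcm10, Pola1, Pola2 and Rrm1, with values of 0.18 (Pola2) to 0.48 (Mcm5). For 14 genes all irradiated libraries were above control (background 16.8%): Orc1, Cdc6, Cdt1, Mcm2, Mcm5, Mcm6, Mcm7, Mcm10, Pola1, Pola2, Pole, Rfc2, Rrm1 and Rrm2. Of the 36, 4 were below 0 (background 47%), which were Orc6, Gins3, Dut and E2f1. The 7 of 36 at unadjusted p are a smaller share than the background, and the 14 of 36 that did not overlap a larger one. Array quality weights called 11 genes. At day 9 the basal keratinocyte markers summed to 10139 to 11054 FPKM in irradiated and 3927 to 8464 in control skin, and the 8 fibroblast markers, all at 1 FPKM or more, to 3630 to 6391 and 7370 to 9167. Of the 8 basal markers 1 rose (background 2.33%), and none of the fibroblast markers was called (background 5.38%). The 6 adipocyte markers, all at 1 FPKM or more, summed to 326 to 998 FPKM in irradiated and 109 to 156 in control skin, and 4 of them rose (background 2.33%). The 13 hair follicle markers in the table, none at 0, summed to 74.2 to 169.5 FPKM in irradiated and 64.9 to 1069 in control skin, ranges that overlap, and 2 of them fell (background 3.05%, median log2 fold change of the 13 -1.65). The part of these cell types in the values at day 9 was not tested.

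**Figure D5:**
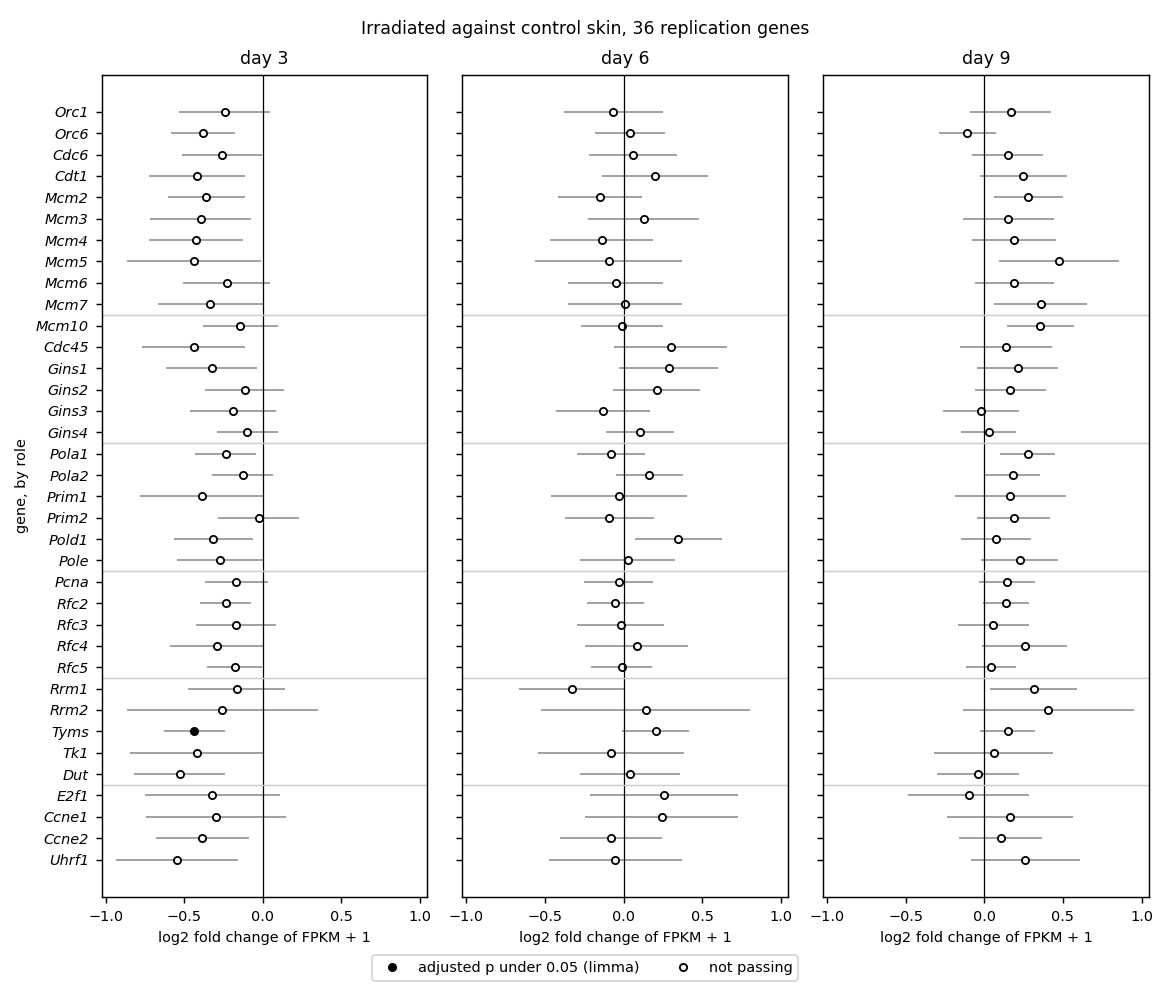
Log2 fold change of FPKM + 1, irradiated against control, at days 3, 6 and 9 for the 36 tested genes, with 95% intervals; the filled point is the one with adjusted p under 0.05. All 36 lie left of 0 at day 3 (median -0.29), 32 lie right of 0 at day 9 (median 0.16), and Tyms at day 3 is the call.

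The difference between the effects at day 9 and day 3 was above 0 for all 36 genes, where 44.3% of all genes were below 0, with a median of 0.48 against 0.04 for all genes, and none passed (background 0%, since no gene of 15271 passed; limma-voom 0). At unadjusted p under 0.05 there were 25 (background 14.5%). The values ran from 0.13 (Gins4) to 0.91 (Mcm5), and the lowest adjusted p was that of Tyms (0.58, SE 0.12, limma adjusted p = 0.14). Array quality weights called 21 and a fit of only the groups compared called 3. The F test over the 3 days called none (background 0.0131%; 19 at unadjusted p under 0.05, background 15.3%; limma-voom 0). Averaged over days 3, 6 and 9 none of the 36 passed (background 6.93%; 2 at unadjusted p under 0.05, Orc6 and Dut, background 22.7%; limma-voom 0), and the values ran from -0.18 (Dut) to 0.10 (Rrm2). For 30 of the 36 the 95% interval of this averaged difference lay within 0.3 of 0.

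Of 84 replication pathway genes outside the 37, 82 were tested, and 5 rose (background 4.36%) and 4 fell (background 2.57%) with irradiation averaged over days. Those that rose included Cdkn1a (p21, an inhibitor of cyclin-dependent kinases that is induced by p53; 1.04, SE 0.12), Dck, deoxycytidine kinase of the salvage pathway (0.63, SE 0.13), Ccnd1, cyclin D1 (0.59, SE 0.14), and Timeless, a fork protection factor (0.46, SE 0.08). Those that fell were Cdkn1c (p57, another inhibitor; -1.44, SE 0.23), Cdkn1b (p27; -0.38, SE 0.06), Cdk2 (-0.23, SE 0.06) and Slbp, which binds histone mRNA (-0.16, SE 0.04). Ccnd2, cyclin D2, was the fifth that rose (0.39, SE 0.10).

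At day 3, 2 of the 82 rose (background 1.56%), Dck (1.07, SE 0.22) and Cdkn1a (1.01, SE 0.21), and Slbp fell (-0.32, SE 0.07). At day 9 Cdkn1a rose (1.14, SE 0.19; background 2.33% higher) and Cdkn1c fell (-1.98, SE 0.36; background 3.05% lower), and at day 6 none passed (14 of 82 at unadjusted p under 0.05, close to the background of 15.4%; background 0.275% called). Cdkn1a was 204 to 207 FPKM in irradiated and 90.5 and 114 in control skin at day 3, 182 and 162 against 94.8 and 80.9 at day 6, and 127 to 140 against 51.9 to 77.1 at day 9. Irradiated Cdkn1a libraries were above the controls at each of these days, and Dck was at 19.5 to 24.9 FPKM in irradiated day 3, above the 9.35 and 10.3 of control. These changes in Dck and Cdkn1a and the levels of the 37 genes are given side by side, and no test linked them.

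The mitosis genes are transcribed later in the cycle than the replication genes. All 30 rose to control day 3 (median 1.46; background 25.8%). At irradiated day 3 all 30 had a negative difference (median -0.55; background 59.1%), and 4 fell (background 0.288%): Cenpa (-0.72, SE 0.12), Nusap1 (-0.71, SE 0.15), Kif23 (-0.57, SE 0.11) and Mad2l1 (-0.50, SE 0.11). The proliferation marker Mki67 was 22.3 and 22.4 FPKM in control and 13.0, 11.6 and 12.1 in irradiated skin at day 3 (-0.82, SE 0.20, limma adjusted p = 0.061). Cdk1, the mitotic kinase, had -0.47 (SE 0.18, adjusted p = 0.33) and Dnmt1, the maintenance DNA methyltransferase that Uhrf1 recruits, -0.26 (SE 0.13, adjusted p = 0.46). Of 20 p53 targets 14 rose in the comparison averaged over days (background 4.36%), Cdkn1a among them, with Trp53inp1 (0.80, SE 0.13), Ccng1 (0.80, SE 0.08) and Aen (0.71, SE 0.05) next in size. Whether the mitosis genes differed from the 37 in their day 3 effect was not tested.

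The 36 tested genes varied together across the 17 libraries. Pearson's r between pairs of them had a median of 0.876 over 630 pairs, from 0.383 to 0.985, a description in which all points share the same libraries and the low day 0 libraries weigh heavily. Mcm5 followed the mean of the others most closely (r = 0.989), and Pola2 (0.679), Orc6 (0.758), E2f1 (0.766) and Dut (0.784) least. Of the protein-coding genes outside the 37, those most alike to the members' mean included Lig1, the ligase that joins Okazaki fragments (r = 0.993), Hells, a chromatin remodeller (0.989), Mybl2, a transcription factor of the cell cycle (0.984), and the helicase Blm (0.982), each over 17 libraries. Lig1 and Hells had differences of -0.42 and -0.44 at irradiated day 3, and neither passed. They were picked for their likeness over these same libraries, so a difference in the members' direction follows from the choice. The 12 members with an E2F-type word in the promoter had a median log2 fold change to control day 3 of 1.04 (0.74 to 2.30). For the 16 tested members without one it was 1.16 (0.34 to 1.95). At irradiated day 3 these medians were -0.29 and -0.31. Adding 1 to FPKM shrinks changes of low genes, such as Orc1 (ratio of control day 3 to day 0 means 5.67, log2 fold change 0.92). The order of these medians depends on that scale, and a difference between the sets was not tested.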

How the data were processed

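RNA from skin was made into 17 Smart-Seq2 libraries and sequenced in pairs, per the labels' protocols. Reads were aligned to mm10 with HISAT2 2.2.1, per the submitters' processing notes. Which tool counted fragments, on which annotation and with which strand setting, is not stated in those sources. The authors deposited FPKM for 34140 genes, with no counts. With exon lengths of GENCODE M21, 90.9% of values were whole fragments within 0.01, so the depth of each library was recovered.

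Values were analysed as log2(FPKM + 1), which understates changes of low genes, keeping genes that reached an FPKM of 1 in 2 or more libraries. The limma-trend method (limma 3.58.1 in R 4.3.3) gave each group its own mean and used every one of the 17 libraries, with Benjamini-Hochberg adjustment over 15271 genes and a threshold of 0.05; it was tested on simulated data. The alternatives were pseudocounts of 0.1 and 5, filters at an FPKM of 0 and 5, 3 other scalings (median of ratios, nuclear genes alone, quantiles), limma-voom on recovered fragments, robust variances, quality weights per library, blocking on the replicate number, fitting the compared groups alone, and leaving out each library. The members and lists were chosen with earlier results of these data known. Values in every library are given for members that passed for irradiation and, in each role, for the members with the highest and lowest mean FPKM. Outside the members, up to 4 passing genes per list were named, with Cdkn1a, Mki67, Cdk1 and Dnmt1 always, and, of the 5 genes most correlated with the members' mean, 4; the other is not reported here. Of 260 list genes 259 were in the table.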

Additional observations from a re-analysis of the deposited data

How the results depend on the processing

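The counts of members rising from control day 0 to days 3 and 9 moved by less than 1.5 times under the 29 alternatives (26 to 36 and 25 to 35, the lowest at a minimum FPKM of 5, where 26 members were tested). The day 6 count of 29 was 19 at that minimum, 2 in a fit of only the groups compared, and 21 to 30 with a replicate left out. Array quality weights gave 12 calls for irradiation at day 3, 11 at day 9, 21 for day 9 minus day 3, 12 in the F test, 25 for control day 9 against day 3 and 5 for irradiated day 9 against day 3. A fit of only the groups compared gave 3 at day 3, 3 for day 9 minus day 3 and 1 for irradiated day 9 against day 3. At day 3 a pseudocount of 0.1 and no filter gave 0, and at day 9 a pseudocount of 5 and quantile normalization gave 1. Leaving out each replicate gave 0 to 1 averaged over days, 0 to 2 at day 3, 0 to 1 at day 9, 0 to 19 for control day 9 against day 3, and 0 to 1 in the F test. The Gins4 change from control day 0 to day 9 became -0.035 with FPKM rescaled to nuclear genes. The cause of these changes was not tested. At day 6 no alternative called a member.

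Residuals of libraries sharing a day and a replicate number correlated with r of -0.12 to 0.30 over 6 pairs, so the numbers were not taken as pairs. With a replicate block the day 3 count was 0, that of control day 9 against day 3 was 12, and those of control days 3, 6 and 9 against day 0 were 36, 29 and 33. Fen1 values rest on 2 to 32 fragments per library, and 78.8% of its exon bases are shared with the antisense gene Gm10143. Why Fen1 values were so low was not tested, so they may not reflect the level of its RNA.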
